A study of Mus musculus with 16 samples.

Results

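Of the 16 arrays of the series, 4 set mouse mast cells that were activated through their IgE receptor and given an antibody against TIM-3 for 2 h beside equally activated cells given control IgG. They were picked by a rule on the labels, as the arrays named for IgE and antigen activation with anti-TIM-3 and no mark of 16 h. Earlier results of these data were known when they were chosen. Mast cells had been grown from bone marrow for over 4 weeks in medium with 10% fetal calf serum, IL-3 at 5 ng/ml and stem cell factor at 40 ng/ml. For activation, cells were loaded with 5 ug/ml IgE (1 h) and received 100 ng/ml of the antigen DNP-HSA, so the IgG-treated cells of these arrays were activated too. Cells received 15 ug/ml of either a goat polyclonal antibody that activates mouse TIM-3 or unspecific goat IgG. The remaining arrays have the same layout in resting cells at 2 h (4 arrays), in activated cells at 16 h (4) and in resting cells at 16 h (4). The labels name no strain, sex or age, and whether each replicate had its own animal or culture is not stated, which means that the p-values reflect the spread among these samples and that this spread may be technical.

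TIM-3 is a cell-surface receptor with an immunoglobulin and a mucin domain, encoded by Havcr2, and is best known as an inhibitory receptor of T cells. It has no enzymatic activity of its own and is also present on mast cells and other myeloid cells. When antigen cross-links IgE on the high-affinity receptor Fc-epsilon-RI, the kinases Lyn and Syk start calcium, MAP kinase and NF-kappaB signals. Mast cells then release stored granules within minutes, make lipid mediators, and transcribe early-response genes followed by cytokines and chemokines over the next hours.

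Each array paired Cy5-labelled RNA from cells given anti-TIM-3 with Cy3-labelled RNA from cells given IgG. The ratios below are log2 of Cy5 over Cy3, so a positive value means more RNA with anti-TIM-3 than with IgG, and each is the mean of 4 arrays with the SD between arrays. No array exchanged the dyes, so within the group the antibody's effect and a probe's own preference for one dye cannot be told apart. Such a preference, if the same throughout, drops out when the ratio in resting cells is subtracted from that in activated cells, which is why resting values stand beside many results. The share of spots clearly brighter than their background was 58.3% to 60.9% for anti-TIM-3 (Cy5) and 56.4% to 58.1% for IgG (Cy3), and saturation touched 0 spots. Replicates 1 and 2 lay on one slide and replicates 3 and 4 on another. The ratios of the 4 arrays correlated with each other across genes at 0.744 to 0.877, where genes are not independent replicates, and the number of arrays limits the precision.

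All 16 mast cell markers checked were well above background in both channels on all 4 arrays, among them Kit, Fcer1a and Cpa3. The macrophage and dendritic cell list had 22 of 27 markers at that level, Cd68 and Csf1r among them. Its summed intensity ran between 34238 and 86313 with anti-TIM-3 and between 33287 and 81553 with IgG on the activated arrays. C1qa, Mertk, Siglech and Vsig4 were not above background on any of them. Of the neutrophil list 4 of 14 markers passed on all 4 arrays, with Elane, Camp, Ngp, Lcn2 and Retnlg not above background on any. For lymphocytes it was 11 of 19 and for fibroblasts 4 of 11, with Cd3g, Pax5, Dcn and Lum among those never above background. The part of other cells in the results below was not tested, and in bulk RNA fewer cells of a type and less RNA per cell cannot be told apart.

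Some cytokine, chemokine and early-response genes were many-fold higher with anti-TIM-3 than with IgG in activated cells, and no gene fell 2-fold. Of 17101 genes tested, 5698 had a mean ratio that differed from 0 (limma, adjusted p under 0.05), which is 33.3% of all. They split into 2919 higher (17.1%) and 2779 lower (16.3%), with a median absolute log2 ratio of 0.21. Without replicate 4 the number lower was 1815. At least 2-fold changes were 66 rises (0.386% of the genes tested) and 0 falls, and 237 genes rose and 15 fell by over 1.5-fold. Each of the 66 was higher on all 4 arrays, and 63 have a gene name. Replicate 4 had the highest ratio of the 4 arrays in 44 of them and replicate 1 the lowest in 34, and the medians over the 66 genes were 1.44, 1.64, 1.43 and 1.68 on replicates 1 to 4. In resting cells 45 of the 66 had a ratio under 0.3. The IgG signal of resting cells was not well above background on all 4 arrays in 14 of the 66, so their resting ratios are not exact. The split of the calls hangs on the scaling of the arrays: from Agilent's own processed signals it came to 2261 higher and 3648 lower. The deposited log ratios are ratios of those same signals, apart from spots set to 0, and gave 2270 and 3646. The split was 10293 and 797 with arrays centred on the median of all spots, which moved the median gene to 0.22. With centring on the median of the genes tested it was 5704 higher and 5644 lower, and list counts under that scaling are to be read against those. List counts given without a named scaling are to be read against the 17.1% higher and 16.3% lower of all genes. Ratios below are on the log2 scale, and a gene is said to rise or fall only where its adjusted p was under 0.05. Where a single gene is said to be positive on median-centred arrays, its value is relative to that scaling's median gene. Without that subtraction median centring called 0 genes lower in the cytokine, AP-1, NF-kappaB, NF-kappaB feedback and IgE receptor lists. Falls in those lists were thus not called under it, whether marked as positive or not.

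**Figure D1:**
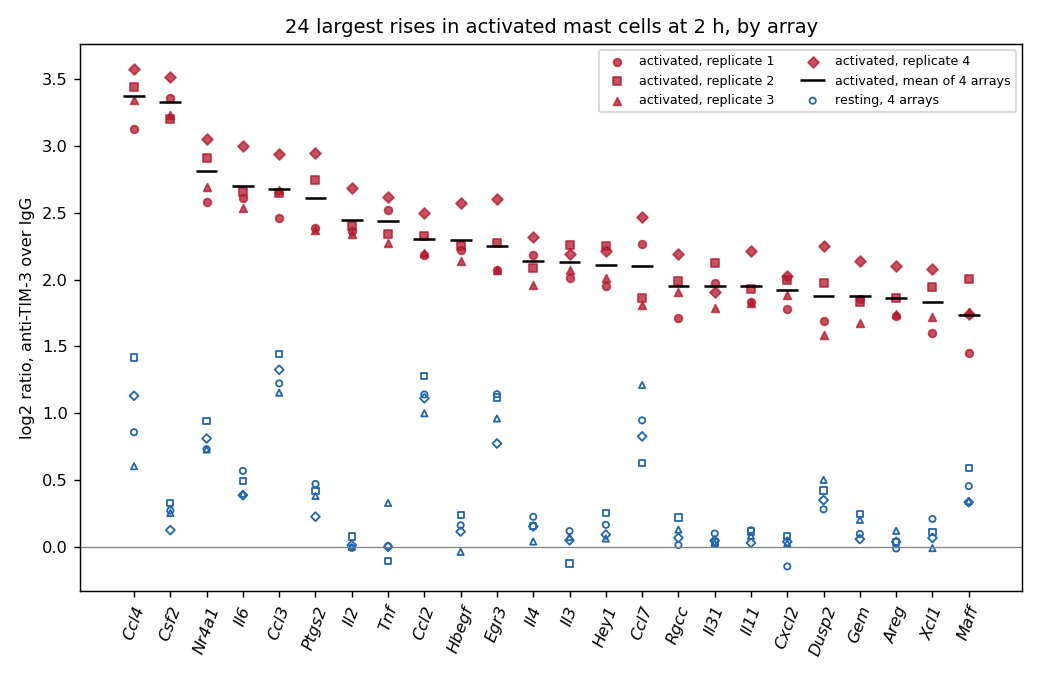
The y axis is the log2 ratio of anti-TIM-3 over IgG at 2 h and the x axis the 24 named genes with the largest rises in activated cells. Filled red marks are the 4 activated arrays by replicate with their mean as a bar, and open blue marks are the 4 arrays of resting cells; Ccl4 and Csf2 stand above 3 on every activated array and the red and blue marks do not overlap for any of the 24 genes.

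Cytokine genes were among the largest rises. Csf2, which encodes the granulocyte-macrophage growth factor GM-CSF, had ratios of 3.36, 3.20, 3.23 and 3.51 on activated replicates 1 to 4. Its mean was 3.33 ± 0.14 (SD, n = 4, 10.0-fold, adjusted p = 7.06e-17), and in resting cells it was 0.24. The normalized probe intensity was 11225 with anti-TIM-3 and 1118 with IgG in activated cells, and 90.6 with anti-TIM-3 and 76.6 with IgG in resting cells. In IgG-treated resting cells Csf2 was well above background on only 1 of 4 arrays, and in activated cells with IgG on all 4.

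Il6, a cytokine of the acute-phase response and of B cell help, had ratios of 2.61, 2.66, 2.53 and 3.00 on the activated arrays, and all exceeded the resting values of 0.57, 0.49, 0.40 and 0.39. Il2, the T cell growth factor, reached 2.36, 2.40, 2.34 and 2.68, against -0.01, 0.08, 0.00 and 0.01 in resting cells. Both groups of arrays lay far apart for these genes. Il2's normalized intensity in resting cells was 73.6 to 80.5 over both antibodies, about as low as that of Csf2 with IgG. Its resting ratios are therefore not exact. Il2's brightest probe averaged 2.45 (5.45-fold, adjusted p = 2.91e-16) and its other probe 1.50, so the size of this rise hangs on the probe. Il3, a growth factor of mast cells themselves, had ratios of 2.01, 2.26, 2.07 and 2.19, with a mean of 2.13 ± 0.11 (SD, n = 4, adjusted p = 2.51e-15).

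Type-2 cytokines rose by unequal amounts. Il4, which drives IgE class switching, had ratios of 2.18, 2.09, 1.96 and 2.32 in activated cells, and Il13, which acts on airway and gut epithelium, of 1.52, 1.50, 1.47 and 1.53. Il13 was the most even of the large rises between arrays, with an SD of 0.03. Il31, a cytokine of itch, rose by 1.95 (adjusted p = 3.59e-14), and Il5, the eosinophil growth factor, by 0.39 (adjusted p = 3.18e-06). Il9 rose by 0.45 and Il10, an anti-inflammatory cytokine, stood at 0.06 (adjusted p = 0.0875). Il11, of the IL-6 family, rose by 1.95 and Ifng, the macrophage-activating interferon, by 1.03, though Ifng was well above background with IgG on only 3 of 4 activated arrays and on 0 resting ones. The sizes of the rises in genes of low signal hang on how the signals were processed. With Agilent's processed signals Il31 stood at 3.09, Ifng at 2.26, Il9 at 1.60 and Il5 at 1.14, all called.

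Over the cytokine list, 27 of 33 genes were measured, of which 17 rose and 2 fell. The median was 0.50 (0.58 on the slide of replicates 1 and 2, 0.45 on that of 3 and 4) beside 0.00 over all genes tested. With centring over the genes tested 18 cytokine genes were called higher and 5 lower. Il1a (0.95), Csf1 (0.86), Tslp (0.78), Il1b (0.64) and Il33 (0.63) rose less than 2-fold. Il27 (-0.09) and Flt3l (-0.17), a growth factor of dendritic cell precursors, were the falls. Il12a (0.05), Il12b (0.00), Il15 (-0.02) and Il18 (-0.02), which act on NK and T cells, were not called. In 16 of the 27 genes the ratio was higher in activated than in resting cells by the test of that difference, against 3.6% of all genes tested, and in 0 lower.

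**Figure D2:**
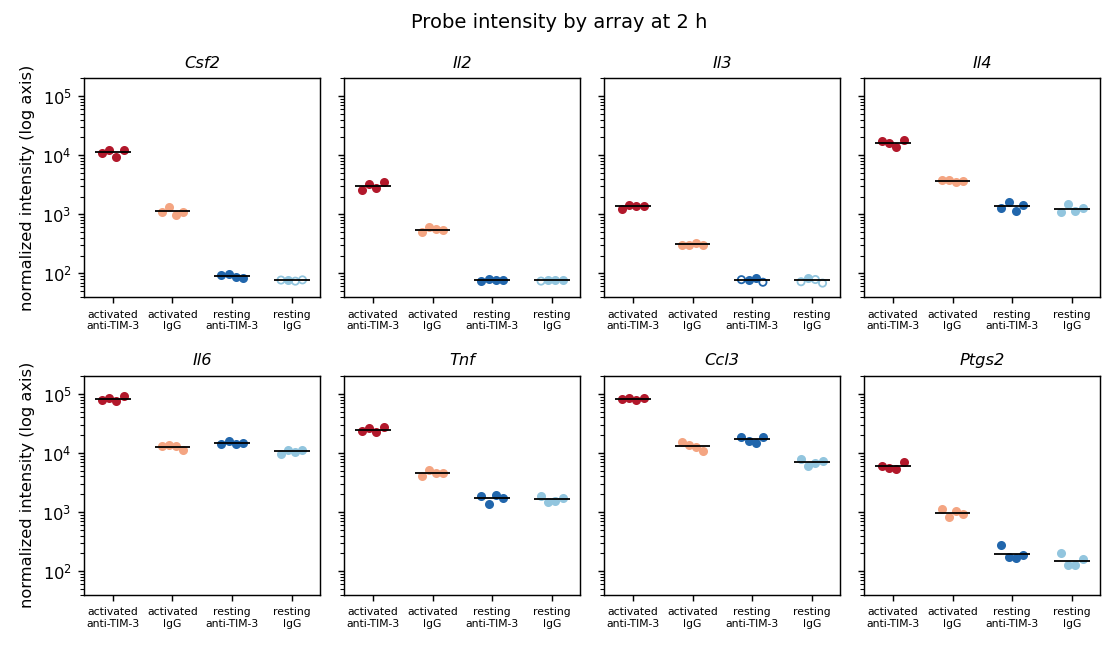
Each panel shows the normalized probe intensity (log axis) of one gene on 4 arrays per group at 2 h, anti-TIM-3 left of IgG and activated left of resting, with bars at geometric means and open points where the spot was not well above background. In activated cells the anti-TIM-3 points lie above all IgG points for each of the 8 genes, and all Il2 and Il3 points of resting cells lie below those of activated cells.

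Tnf, the founding ligand of its family and a product of activated mast cells, had ratios of 2.52, 2.34, 2.27 and 2.62 in activated cells and of 0.00, -0.11, 0.33 and 0.00 in resting cells. The mean was 2.44 (5.42-fold, adjusted p = 2.26e-14) on intensities of 24893 with anti-TIM-3 and 4597 with IgG. Among the 14 measured genes of TNF-family ligands 7 rose and 2 fell (median 0.15). With centring over the genes tested 6 were called higher and 4 lower, and the list's median lay 0.003 above that of all genes. Tnfsf8, the CD30 ligand, rose by 1.29 (adjusted p = 4.7e-09). The death ligand gene Tnfsf10 (0.42), the OX40 ligand gene Tnfsf4 (0.34), Tnfsf14 (0.30) and Lta (0.22) rose by small amounts, and Tnfsf9 (-0.13) and Tnfsf13 (-0.14) fell. Of the 19 measured receptors of this family 7 rose and 4 fell, with Tnfrsf9, the receptor 4-1BB, at 0.35 and Tnfrsf18, the receptor GITR, at -0.37 as the extremes. Over all genes tested 17.1% rose and 16.3% fell.

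Chemokine genes held the largest single rise. Ccl4, which attracts T cells and monocytes, had ratios of 3.13, 3.44, 3.35 and 3.58 in activated cells (mean 10.4-fold, adjusted p = 2.14e-12). In resting cells its ratios were 0.86, 1.42, 0.60 and 1.13, so all 4 arrays were above 0 there too and below every activated array. Ccl3, a close relative, had 2.46, 2.65, 2.67 and 2.94 in activated cells and 1.22, 1.44, 1.15 and 1.32 in resting cells. Ccl2 and Ccl7, both ligands of the monocyte receptor CCR2, averaged 2.30 and 2.10 in activated cells and 1.13 and 0.90 in resting ones. The activated arrays lay above the resting arrays in each of these 4 genes, and each difference was called (2.37 for Ccl4, 1.39 for Ccl3, 1.17 for Ccl2 and 1.20 for Ccl7, the largest of their adjusted p-values being 8.68e-06).

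Cxcl2, which attracts neutrophils, rose by 1.92 in activated cells with no resting counterpart (0.00), and Xcl1, a ligand of cross-presenting dendritic cells, by 1.83. Ccl1, a ligand of CCR8, varied between arrays (1.61, 1.02, 0.88 and 1.49). The list counted 14 rises and 3 falls among 29 measured genes, with a median of 0.18. With centring over the genes tested 15 were called higher and 8 lower. Ccl9 (0.68), Ccl24 (0.45), Ccl17 (0.43) and Ccl12 (0.41) rose less than 2-fold, though Ccl12 stood at 1.21 with Agilent's processed signals (adjusted p = 6.57e-05). Cxcl16 (-0.12), Ccl6 (-0.18, positive on median-centred arrays) and Cx3cl1 (-0.76) fell. Cx3cl1, a membrane-bound chemokine, had ratios of -0.82, -0.73, -0.63 and -0.87, which is the largest fall of a named gene (adjusted p = 2.78e-09). Ccl5 (0.00) and Ccl22 (0.02) were not called.

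The stretches of 250 bases before the annotated starts of 5 of these large rises are printed because these genes moved together. They are the 5 largest rises with an entry, in RefSeq promoters of GRCm38.p6, read on the gene's strand. Capitals mark matches, on either strand, to the NF-kappaB consensus, the AP-1 site TGANTCA, the NFAT core TGGAAA, the cAMP-response element TGACGTCA, the CArG box, the EGR site or the TATA box TATAAA, where overlapping matches share their capitals.
Csf2, chr11:54249900-54250149, minus strand: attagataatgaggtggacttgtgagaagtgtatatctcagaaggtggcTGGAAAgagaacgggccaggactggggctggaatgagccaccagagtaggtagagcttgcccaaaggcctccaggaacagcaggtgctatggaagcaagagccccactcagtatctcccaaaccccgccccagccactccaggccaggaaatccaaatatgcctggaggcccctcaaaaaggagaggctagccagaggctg
Nr4a1, chr15:101266596-101266845, plus strand: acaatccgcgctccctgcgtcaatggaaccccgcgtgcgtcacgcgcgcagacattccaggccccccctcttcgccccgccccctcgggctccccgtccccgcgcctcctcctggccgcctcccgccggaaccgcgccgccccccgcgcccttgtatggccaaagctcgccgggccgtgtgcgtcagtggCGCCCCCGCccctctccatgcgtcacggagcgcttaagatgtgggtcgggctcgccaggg
Il6, chr5:30012864-30013113, plus strand: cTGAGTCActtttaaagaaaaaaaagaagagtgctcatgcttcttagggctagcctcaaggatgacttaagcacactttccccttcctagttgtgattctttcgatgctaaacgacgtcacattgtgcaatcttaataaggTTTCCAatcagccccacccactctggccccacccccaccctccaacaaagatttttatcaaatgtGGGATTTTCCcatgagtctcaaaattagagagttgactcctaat
Ccl3, chr11:83649379-83649628, minus strand: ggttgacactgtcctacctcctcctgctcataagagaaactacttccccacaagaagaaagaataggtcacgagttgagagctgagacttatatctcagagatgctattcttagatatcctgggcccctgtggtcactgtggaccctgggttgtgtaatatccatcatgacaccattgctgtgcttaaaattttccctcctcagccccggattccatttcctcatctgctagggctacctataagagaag
Ptgs2, chr1:150099781-150100030, plus strand: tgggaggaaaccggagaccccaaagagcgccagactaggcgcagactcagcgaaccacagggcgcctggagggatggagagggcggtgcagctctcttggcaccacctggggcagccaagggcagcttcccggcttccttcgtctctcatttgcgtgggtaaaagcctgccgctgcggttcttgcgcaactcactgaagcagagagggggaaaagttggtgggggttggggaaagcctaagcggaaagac
The Il6 stretch held an NF-kappaB match at -44 to -35, counted from the start, and an AP-1 match at -249 to -243. That AP-1 match fits TGANTCA on both strands. An NFAT match of Il6 lay on the opposite strand at -109 to -104. Csf2 held 1 NFAT match at -201 to -196, and Nr4a1 held 1 EGR match on the opposite strand at -60 to -52. The stretches of Ccl3 and Ptgs2 held none of these letters, which says nothing of the factors. Among the 66 genes raised at least 2-fold, 43 had an entry. NF-kappaB matches were in 18.6% of these 43 and in 8.49% of the 11219 entries of all genes tested, NFAT matches in 27.9% against 15.4%, EGR matches in 11.6% against 5.3%, and TATA boxes in 20.9% against 7.89%. AP-1 matches were in 2.33% against 4.84%, cAMP-response elements in 4.65% against 2.54% and CArG boxes in 0 of the 43 against 1.17%. In the 53 entries of the 66 genes with the largest falls the shares were 17% for NF-kappaB, close to that in the rises, 5.66% for NFAT, 1.89% for CArG boxes and 3.77% for each of the other 4 motifs. These shares are descriptions, and a match is not a site of binding.

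Some growth factors and other secreted proteins rose as well. Hbegf, a heparin-binding ligand of the EGF receptor, had ratios of 2.22, 2.25, 2.14 and 2.57 in activated cells and of 0.16, 0.24, -0.04 and 0.11 in resting cells. Areg, amphiregulin, a further ligand of that receptor, had 1.73, 1.86, 1.74 and 2.10, and in IgG-treated resting cells its signal cleared the background on 0 of 4 arrays. Of 22 measured growth factor genes 13 rose and 0 fell (median 0.28). With centring over the genes tested 13 were called higher and 6 lower, and with Agilent's processed signals 13 and 2. Spp1, which encodes osteopontin, rose by 1.28, Inhba, the activin A chain, by 1.10, Penk, proenkephalin, by 1.04, Gdf15 by 0.87 and Vegfa, the endothelial growth factor, by 0.70. Penk's other probe stood at 0.34. Fst, follistatin, which binds activin, rose by 1.73 in activated cells beside 0.61 in resting ones.

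Outside that list, Edn1, endothelin 1, a vasoconstrictor peptide, rose by 1.70 ± 0.17 (SD, n = 4, adjusted p = 4.6e-11). Mst1r, the receptor tyrosine kinase RON, rose by 1.71, and Serpina3g, a protease inhibitor, by 1.00. Mlana, known as a melanocyte antigen, rose by 1.05 and Clstn3, a calsyntenin, by 1.26.

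**Figure D3:**
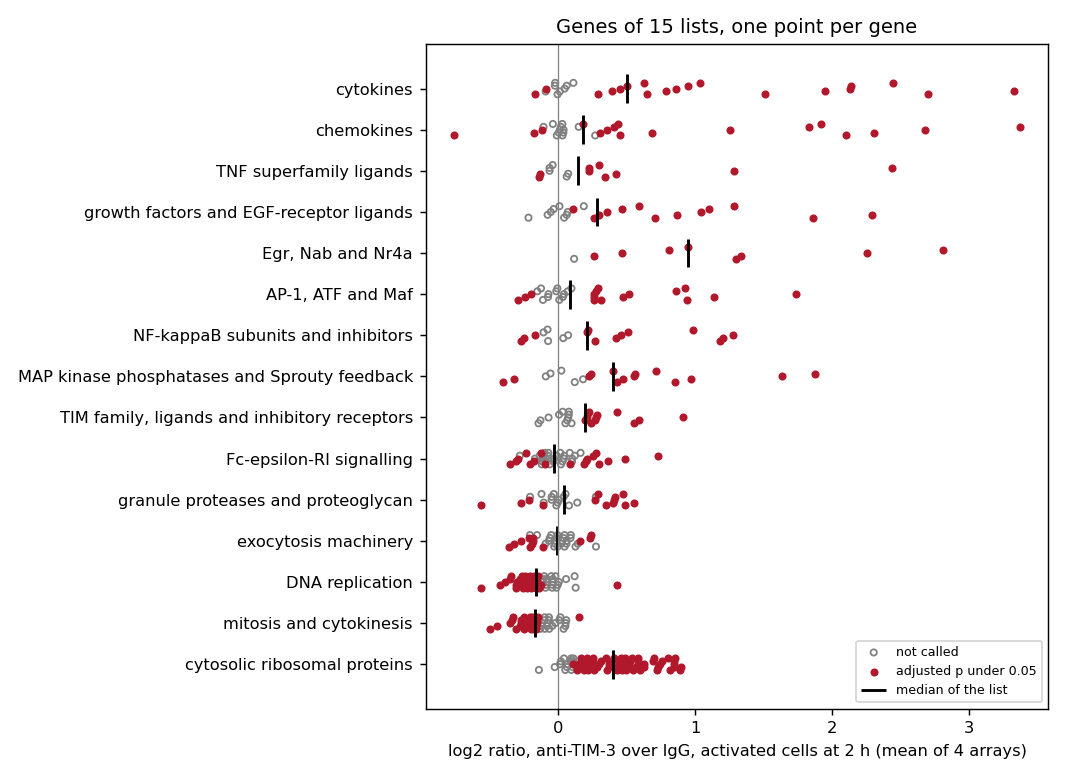
The x axis is the mean log2 ratio of anti-TIM-3 over IgG in activated cells at 2 h, and each row is a gene list with a point per measured gene, red where the adjusted p was under 0.05. Bars are list medians: 0.50 for cytokines, 0.95 for the Egr, Nab and Nr4a genes, -0.16 for DNA replication and 0.40 for ribosomal proteins.

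Most genes of the Egr and Nr4a families of early-response factors rose. Nr4a1, an orphan nuclear receptor induced by antigen receptors, had ratios of 2.58, 2.91, 2.69 and 3.05 in activated cells (mean 7.01-fold, adjusted p = 7.69e-15) and of 0.73, 0.94, 0.73 and 0.81 in resting cells. Egr3 had 2.07, 2.27, 2.08 and 2.60, but its other probe stood at 0.48. Nr4a3 (1.34), Egr1 (1.30), Nr4a2 (0.95) and Egr2 (0.81) rose too, and so did Nab2 (0.47), a corepressor that binds Egr proteins. In all 8 of 9 genes of this list rose and 0 fell. Egr1 was uneven, with ratios of 0.81, 1.29, 1.48 and 1.61, and Fosl2's and Spry2's other probes, like that of Egr3, stood lower than the brightest ones (0.40 and 0.10).

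Of 28 AP-1, ATF and Maf genes 13 rose and 3 fell (median 0.08). The family split between members: Maff, a small Maf protein, rose by 1.74, Fosb by 1.14, Atf3 by 0.94, Fosl2 by 0.92 and Junb by 0.86, whereas Jun, the main partner of Fos proteins, fell by 0.29 (adjusted p = 1.84e-05). Creb1 (-0.24) and its coactivator Crebbp (-0.20) fell, and Jund (-0.07) was not called, though it was called lower with Agilent's processed signals (-0.32) and is positive on median-centred arrays. Fos itself rose by 0.52 (0.86 with Agilent's processed signals), about as much as in resting cells (0.49), and that difference was not called (0.03, adjusted p = 0.927).

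Among 18 genes of NF-kappaB subunits, inhibitors and the proteins that activate them, 10 rose and 3 fell. The nuclear inhibitors Nfkbiz, with ratios of 1.24, 1.24, 1.09 and 1.54, and Nfkbid, with 1.43, 1.08, 0.99 and 1.30, rose most. Malt1, the protease that links antigen receptors to NF-kappaB, rose by 1.18 and the subunit gene Rel by 0.98. Nfkb1 (0.51) and Nfkbia (0.46), the classical inhibitor, rose less. Rela (-0.17, positive on median-centred arrays) and Bcl3 (-0.25) were among the falls. Tnfaip3, the feedback enzyme A20, stood at 0.07 (adjusted p = 0.241). In the list of NF-kappaB feedback and mRNA decay genes 12 of 34 rose and 5 fell, led by Zc3h12c (0.85), of the Regnase family of RNases, and Zfp36l1 (0.49), which destabilises cytokine mRNAs. Zfp36l2 (-0.19), Birc3 (-0.22), Tnip1 (-0.24), Cnot8 (-0.16) and Birc2 (-0.14) fell.

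Other early-response genes counted 27 rises and 5 falls among 51. Gem, a small GTPase that restrains calcium channels, had ratios of 1.85, 1.83, 1.67 and 2.14, from a level that was not above background in IgG-treated resting cells. The polo-like kinases Plk3 (1.56) and Plk2 (1.20), Csrnp1 (1.06) and Btg2 (0.92), an antiproliferative protein, followed. Bcl6 (-0.30), Ier5l (-0.26), Id3 (-0.24), Per1 (-0.22) and Csrnp2 (-0.18) fell, and Ier2 (-0.02), Klf6 (0.07) and Irf1 (-0.05) were not called. Outside the lists, Hey1, a repressor downstream of Notch, rose by 2.11 ± 0.15 (SD, n = 4), Tgif2, a TGF-beta corepressor, by 1.57 and Kdm6b, a histone H3 lysine demethylase, by 1.08. Hivep3, a large zinc finger protein, was at 1.67 on its brightest probe and 0.38 on the other, and Rgcc, a cell cycle regulator, was at 1.95.

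Among the feedback inhibitors of MAP kinases, Dusp2 and Spry1 had the largest rises. Dusp2, a nuclear phosphatase of ERK, had ratios of 1.69, 1.97, 1.59 and 2.25 in activated cells and of 0.28, 0.42, 0.50 and 0.35 in resting cells. Spry1, a Sprouty inhibitor of Ras signals, had 1.59, 1.57, 1.45 and 1.93 and 0.08 on average in resting cells. Of 19 such genes 12 rose and 2 fell (median 0.40), and the list included Spry2 (0.97), Errfi1 (0.85), which inhibits the EGF receptor, and Dusp4 (0.71). The falls were Dusp7 (-0.41) and Dusp9 (-0.33), and Dusp6 (0.18), a cytosolic ERK phosphatase, was not called.

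Of 42 MAP kinases and kinases above them 10 rose and 9 fell, not far from the 17.1% and 16.3% of all genes, and 20 and 4 were called with centring over the genes tested. Map3k8, the kinase Tpl2 that drives ERK after NF-kappaB signals, stood apart with 1.52, 1.75, 1.56 and 1.90, against -0.10, -0.12, 0.12 and 0.00 in resting cells, and at 2.72 with Agilent's processed signals. Mapk6 (0.59), Rps6ka3 (0.35) and Map3k7 (0.32), the kinase TAK1, followed at a distance, and Map2k5 (-0.27) was among the falls. Mapk3 (-0.14) was not called. Sla, an adaptor that lowers antigen receptor signals, rose by 1.50, and Sgk1, a kinase of the Akt kind, by 1.41.

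Genes of the STAT5 pathway and the SOCS feedback proteins counted 15 rises and 6 falls among 34. Bcl2l1, which encodes the survival protein Bcl-xL, rose by 0.64 (other probes 0.08 and 0.19), the kinase gene Jak2 by 0.60, Cish by 0.55 (0.27 with Agilent's processed signals) and Socs5 by 0.53. Tyk2, a kinase of interferon receptors, fell by 0.62 in activated cells, with -0.49 in resting cells, and the difference was not called (-0.14, adjusted p = 0.567). Pias3 (-0.51), Stat2 (-0.47) and Ptpn1 (-0.10, positive on median-centred arrays) fell as well. Among apoptosis genes 8 of 43 rose and 9 fell, near the 17.1% and 16.3% of all genes, and 22 and 8 were called with centring over the genes tested. Ripk2 (0.94), a kinase of NOD signalling, Phlda1 (0.81), Cdkn1a (0.74), the CDK inhibitor p21, and Bcl2 (0.43) rose. The caspase genes Casp9 (-0.33) and Casp2 (-0.28, positive on median-centred arrays) and Phlda3 (-0.40) fell, and Mcl1 (-0.05) was not called.

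Havcr2 itself, which encodes the receptor that the antibody binds, rose to 0.59 ± 0.08 (SD, n = 4), with ratios of 0.49, 0.65, 0.67 and 0.56 on the activated arrays and of 0.15, 0.20, -0.16 and -0.01 on the resting ones. The 2 sets of arrays did not overlap, and the intensities were 53367 with anti-TIM-3 and 35384 with IgG in activated cells, 17223 with anti-TIM-3 and 16701 with IgG in resting cells. With Agilent's processed signals Havcr2 stood at 0.34 (adjusted p = 0.000664). TIM-1's gene Havcr1 stood at 0.07 (adjusted p = 0.285). Of the ligands described for TIM-3, Lgals9, galectin 9, stood at 0.22 (adjusted p = 0.236), Hmgb1 at 0.08 and Ceacam1 at 0.08, and none of these was called. Bag6, an intracellular partner of TIM-3, was not called either (0.10, adjusted p = 0.298). Across the TIM family, its ligands and other inhibitory receptors 11 of 23 rose and 0 fell (median 0.20). Crtam, an adhesion receptor of activated lymphocytes, rose by 0.91, Pirb by 0.56 (beside 0.79 in resting cells), Cd274, the ligand PD-L1, by 0.43 and Fcgr2b, the inhibitory IgG receptor, by 0.28.

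Of 44 genes of the IgE receptor and its signalling proteins 10 rose and 8 fell (median -0.03), beside 17.1% and 16.3% of all genes. This balance hangs on the scaling, since with centring over the genes tested 27 were called higher and 5 lower, and the list's median lay 0.25 above that of all genes. The adaptor gene Lcp2 (SLP-76) rose by 0.48 and the kinase gene Tec by 0.36. Among the falls were Grb2 (-0.35), an adaptor to Ras, Syk (-0.31), the kinase recruited by the receptor, Prkcd (-0.29) and Inpp5d (-0.12), the phosphatase SHIP1. Those of Grb2 and Inpp5d turned positive on median-centred arrays, relative to the median gene there. Without that subtraction 37 genes of the list were called higher and 0 lower, so no fall of this list was called under that scaling. The receptor chains did not pass in activated cells, with Fcer1a at 0.08, Ms4a2 at 0.04 and Fcer1g at 0.16. For Fcer1a, the IgE-binding chain, the ratio in resting cells was 0.80 ± 0.44, and the difference of -0.71 was called with adjusted p = 0.0418. The call was lost with Agilent's processed signals (adjusted p = 0.0859) and without activated replicate 2, 3 or 4 or resting replicate 1 or 3, with adjusted p up to 0.131.

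In the calcium and NFAT list 6 genes rose and 7 fell among 35, about the 17.1% and 16.3% of all genes. Atp2b1, a calcium pump of the cell membrane, rose by 0.51, Rcan1, a calcineurin inhibitor induced by NFAT, by 0.36 (other probe -0.13), and Orai1, the store-operated calcium channel, by 0.27. Kcnn4, a calcium-activated potassium channel of mast cells, fell by 0.67, with ratios of -0.55, -0.73, -0.55 and -0.86 (adjusted p = 1.2e-06), and Itpr3, an IP3 receptor, by 0.49. Cytokine receptor genes counted 8 rises and 3 falls among 38, and 0 differed between activated and resting cells. Il1rl1, the IL-33 receptor, stood at 0.72 in activated and 0.69 in resting cells, and Csf2rb2 and Csf2rb, the shared receptor chains for IL-3 and GM-CSF, at 0.47 and 0.34 (other Csf2rb probes -0.29 and -0.15). With Agilent's processed signals the calls of both chains were lost, Csf2rb2 standing at 0.10 (adjusted p = 0.4) and Csf2rb at 0.0075 (adjusted p = 0.962), and Il1rl1 stood at 0.36. Il4ra, the receptor chain for IL-4 and IL-13, fell by 0.56 (adjusted p = 9.36e-06), and Kit was not called (-0.21, adjusted p = 0.101), though it was called lower with Agilent's processed signals (-0.27, adjusted p = 0.0448) and is positive on median-centred arrays. Of 35 G protein coupled receptors 11 rose and 5 fell, with P2ry2, a receptor for ATP, at 0.92 and S1pr4, a receptor for sphingosine phosphate, at -0.53 as the extremes, and F2r, the thrombin receptor, at 0.89.

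Ptgs2, the inducible cyclooxygenase, was the one large rise among 21 genes of eicosanoid synthesis. Its ratios were 2.39, 2.75, 2.37 and 2.95 in activated cells and 0.47, 0.42, 0.38 and 0.22 in resting cells, on intensities of 5924 with anti-TIM-3 and 968 with IgG in activated cells. A further Ptgs2 probe stood at 2.60. The list counted 4 rises and 2 falls: Alox5, 5-lipoxygenase, was at 0.38 beside 0.45 in resting cells (other probes -0.20 and 0.22), and Pla2g15 (-0.52) and Ptges2 (-0.27) fell. The constitutive Ptgs1 (0.04), the prostaglandin D synthase Hpgds (0.09) and Ltc4s (-0.01), which makes leukotriene C4, were not called.

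Hdc, which makes histamine from histidine, rose by 0.90 ± 0.11 (SD, n = 4, adjusted p = 3.13e-06), with ratios of 0.80, 0.95, 0.82 and 1.03 in activated cells and a mean of 0.15 in resting cells. Tph1, the first enzyme of serotonin synthesis, was at 0.46 in activated and 0.54 in resting cells, with another probe at -0.13. Granule protease and proteoglycan genes counted 9 rises and 4 falls among 27, with Gzmb (0.55), the chymase gene Cma1 (0.49), Gzmc (0.48) and Srgn (0.41), the core of the granule proteoglycan, as examples. With Agilent's processed signals the calls of Srgn (0.11) and Tph1 (0.11) were lost, and Cma1 stood at 0.16. Hs6st1, which sulfates heparin chains, fell by 0.56 with ratios of -0.61, -0.54, -0.55 and -0.56, against 0.20, 0.14, 0.04 and 0.03 in resting cells. The genes of exocytosis counted 3 rises and 9 falls among 36: Stxbp2 (-0.36) and Unc13d (-0.32), which prime granules for fusion, were lowest, and Rab3a (0.24) and Snap29 (0.23) were the largest rises called. Over all genes tested 17.1% rose and 16.3% fell. The balance of the exocytosis list changed with the scaling, as median centring of the arrays put its median 0.16 above that of all genes.

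The largest falls were all under 2-fold. Myb, a transcription factor of blood progenitors, had ratios of -0.77, -0.64, -0.63 and -0.91 (mean -0.74, adjusted p = 9.33e-07), but its 3 other probes ranged between -0.67 and 0.20. Gnaz, a G protein alpha chain, had -0.74, -0.76, -0.64 and -0.78, and its 2 other probes fell too (-0.59 and -0.53). Further falls were those of Niban2 (-0.64), Itga2b (-0.64), the integrin alpha-IIb chain, Gsdme (-0.62), a gasdermin, and Enkur (-0.62). Klc1 (-0.61), a kinesin light chain, Arhgap45 (-0.61), Ppp1r13l (-0.60) and Gsdme had other probes that did not fall alike. Fam102b (-0.60), Csrp1 (-0.58), Neurl3 (-0.58), Acads (-0.57) and Add1 (-0.56) complete the 20 largest named falls, together with Cx3cl1, Kcnn4, Tyk2, Il4ra, Hs6st1 and the helicase gene Mcm6 (-0.57). Over these 20 genes the SD between arrays was 0.03 to 0.29. In resting cells their ratios lay between -0.54 and 0.10, with Niban2 (-0.54), Itga2b (-0.51) and Tyk2 low there as well.

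Many genes of DNA replication and mitosis were lower with anti-TIM-3 by small amounts. In the replication list 1 of 52 rose and 31 fell (median -0.16, with -0.17 on the slide of replicates 1 and 2 and -0.17 on the other). Mcm6 (-0.57), part of the replicative helicase, Chaf1a (-0.43), Rfc1 (-0.39), Pold3 (-0.35) and Mcm8 (-0.34) fell most, and Pcna (0.43), the polymerase clamp, was the one that rose. In the mitosis list 28 of 50 fell and 1 rose (median -0.17): Cenpb (-0.50), Aurka (-0.45), a spindle kinase, Bub1b (-0.35), Top2a (-0.34) and Nusap1 (-0.33) fell and Kif23 (0.15) rose, a call that was lost with Agilent's processed signals (adjusted p = 0.0765). Resting cells had medians of -0.12 and -0.06 for these lists, and the difference was called in 5 genes of each, all lower in activated cells. The direction of the calls hangs on the scaling: on median-centred arrays, where the median gene stood at 0.22, 26 replication genes were called higher and 2 lower, and 17 mitosis genes higher and 7 lower, while both lists' medians stayed below that of all genes (-0.08 and -0.18 relative to it). With centring over the genes tested 8 replication genes were called higher and 22 lower, and 8 mitosis genes higher and 29 lower. Among G1 regulators, Cdkn2b (0.81), Cdkn1a and Ccnd2 (0.47) rose and Cdc25b (-0.42) fell.

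Most cytosolic ribosomal protein genes had ratios above 0 in activated cells. Of 77 measured, 62 rose and 0 fell in activated cells, with a median of 0.40 (0.41 in resting cells). With Agilent's processed signals 37 of the 77 were called higher and 1 lower, with a median 0.19 above that of all genes, while on median-centred arrays all 77 were called higher, with a median 1.00 above it. Rps23 stood at 0.89 in activated and 0.97 in resting cells, Rps18 at 0.89 and 0.86, and Rpl41 at 0.84 and 1.01. In 0 of the 77 was the difference called (limma, adjusted p under 0.05), and its median was -0.03. Of the 66 large rises 3 had a like ratio in resting cells: Aldoa, a glycolytic aldolase, at 1.08 and 1.12, Ftl1, the ferritin light chain, at 1.12 and 0.85, and Ftl2-ps, a ferritin pseudogene whose probe may share RNA with Ftl1, at 1.25 and 1.04. Their differences were -0.04 (adjusted p = 0.797), 0.27 (0.18) and 0.21 (0.342).

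Stress and metabolic genes moved in part, beside 17.1% rises and 16.3% falls over all genes tested. Of 35 heat shock and oxidative stress genes 14 rose and 5 fell. Hspa1a, an inducible Hsp70, rose by 0.92 against 0.01 in resting cells, Srxn1, sulfiredoxin, by 0.56, and Hmox1, haem oxygenase 1, by 0.67, whereas Bag3 (-0.41), Dnajb4 (-0.30) and Keap1 (-0.28) fell. In the ATF4 and unfolded protein list 14 of 43 rose and 2 fell, with Chac1 (0.92), which degrades glutathione, Slc7a11 (0.49), the cystine carrier, and Sesn2 (0.40) leading, and Ddit4 (-0.29, positive on median-centred arrays) and Edem2 (-0.38) lower. Of 36 glycolysis and hypoxia genes 11 rose and 6 fell, and beside Aldoa the largest rises were Ndrg1 (0.97), Hk2 (0.61), a hexokinase, and Ero1a (0.60). Sphk1, which makes sphingosine phosphate, rose by 1.11 ± 0.13 (SD, n = 4, adjusted p = 1.37e-09), and its second probe stood at 0.90. Rgs16 (1.12) and Rgs2 (0.92), which shut off G proteins, rose, while Gnb2 (-0.38) and Rgs12 (-0.35, positive on median-centred arrays) fell.

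Lineage factors were mixed as well, with 14 of 42 up and 8 down. Irf4 (0.71), Ets2 (0.49), Runx2 (0.45), Ets1 (0.42) and Tal1 (0.37) rose, and Tal1's call was lost with Agilent's processed signals (0.17, adjusted p = 0.0685). Zfpm1 (-0.38), the GATA partner FOG1, Gata3 (-0.30), Erg (-0.30), Lyl1 (-0.27, positive on median-centred arrays) and Cebpa (-0.27) fell beside Myb. The mast cell factors Mitf (-0.08) and Gata2 (-0.07) were not called, but Gata2 was called lower with Agilent's processed signals (-0.30, adjusted p = 0.000197) and higher on median-centred arrays. The interferon list had 6 rises and 4 falls among 36, beside 17.1% and 16.3% of all genes, with Socs1 (0.39) and Tap1 (-0.45) furthest from 0 and Ifit1 (0.06) and Rsad2 (0.06) not called.

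Further genes raised at least 2-fold were Rasgef1b (1.35), an exchange factor for Ras-like GTPases, Ccno (1.31), a cyclin-like protein, Arhgef17 (1.14, other probe 0.04), a guanine nucleotide exchange factor, and Cdk5r1 (1.01), an activator of the kinase CDK5. Their ratios in resting cells were 0.42, 0.16, 0.17 and 0.11 in that order, and all 4 differences were called.

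Lists of housekeeping functions held rises and falls together, beside 17.1% rises and 16.3% falls over all genes tested. Of 62 genes of the Myc network and ribosome biogenesis 16 rose and 8 fell, with Myc itself at 0.31 and Ncl (-0.38, positive on median-centred arrays), nucleolin, lowest. Of 40 genes of sterol and fatty acid synthesis 8 rose and 10 fell, of 43 genes of the respiratory chain 9 rose and 4 fell, and of 32 proteasome genes 3 rose and 7 fell. Nuclear import, RNA export and splicing genes counted 16 rises and 3 falls among 35, Hnrnpab (0.50) and Prpf19 (-0.45), a splicing ubiquitin ligase, being examples of each. The lysosome list counted 3 rises and 10 falls among 38, with Atp6v1a (0.65), a proton pump subunit, and Psap (-0.46), prosaposin, at the ends, and its median turned to 0.22 above that of all genes on median-centred arrays. Of 53 actin genes 14 rose and 8 fell, and Marcksl1 (0.77, 0.11 in resting cells), an actin-binding protein, was higher in activated than in resting cells. Among 34 integrin and adhesion genes 10 rose and 3 fell: beside Itga2b, Selplg (-0.43), the selectin ligand PSGL-1, fell and Serpinb2 (0.49), a protease inhibitor, rose.

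The scaling moved the balance of these lists. With centring over the genes tested 31 proteasome genes were called higher and 0 lower, 37 and 0 of the respiratory chain, 25 and 5 of sterol and fatty acid synthesis, 41 and 3 of the Myc network, 28 and 0 of nuclear import and splicing, and 38 and 0 of the actin list. The medians of these lists then lay 0.40, 0.39, 0.25, 0.23, 0.34 and 0.36 above that of all genes, in the same order. Likewise the medians of the heat shock (0.52), ATF4 (0.35), STAT5 (0.29), AP-1 (0.29), granule (0.26), glycolysis (0.24), lineage factor (0.23) and NF-kappaB feedback (0.21) lists lay above that of all genes.

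Among the marker lists of other cells, Siglecf, a sialic acid receptor of eosinophils, rose by 0.75 in activated cells (0.24 in resting cells), while Epx, Prg3 and Ear1, which define that cell type, were not well above background on any of the 4 activated arrays. Nkg7, a granule membrane protein of cytotoxic lymphocytes, rose by 0.54, beside Cd3e at 0.08 (adjusted p = 0.0734). Clec7a (0.24), a receptor for fungal glucans, rose among 23 measured macrophage and dendritic cell markers, 3 of which rose and 3 fell, and Csf1r was not called (-0.02). Of the 9 basophil markers 8 were well above background on all 4 activated arrays, and 5 of these 8 rose and 0 fell (median 0.47, 0.23 in resting cells). The 5 are Ccl3, Il4, Il13 and Gzmb, described above, and Mcpt8 (0.40), a protease of basophils, with Prss34 (0.08) and Cd200r3 (0.07) not called. The summed intensity of that list was 272680.3 to 290316 with anti-TIM-3 and 148056 to 169117 with IgG on the activated arrays, and 142173 to 242907 with anti-TIM-3 and 121052 to 183479 with IgG on the resting ones. The part of basophils in the rises of these genes was not tested. Of the 12 erythroid and megakaryocyte markers 0 rose and 3 fell, Epor (-0.32) and Gp1ba (-0.40) beside Itga2b.

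**Figure D4:**
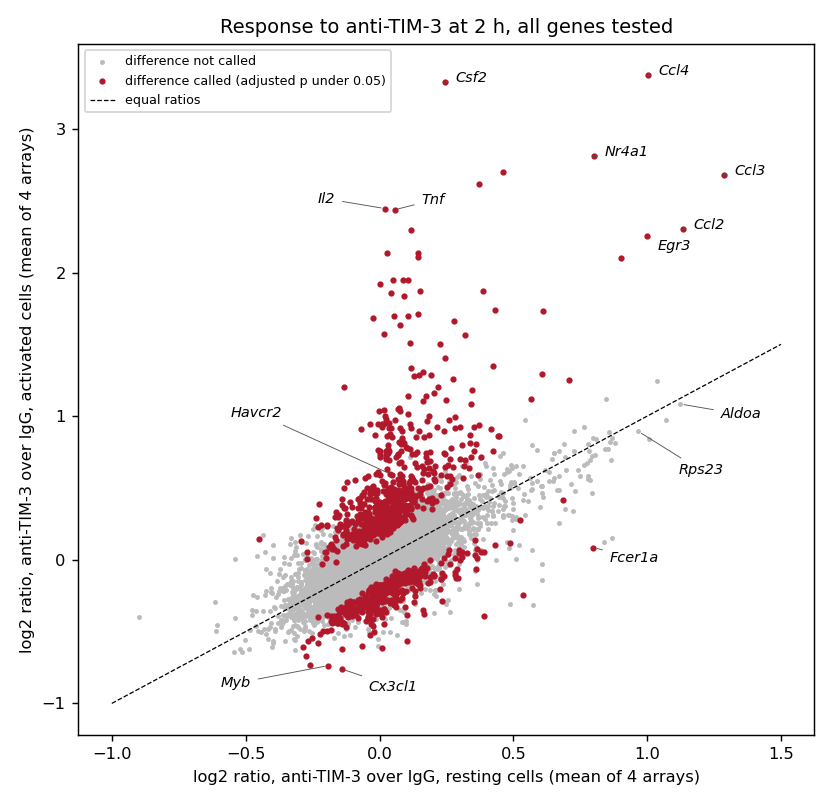
Each point is a gene tested, with the mean log2 ratio of anti-TIM-3 over IgG in activated cells at 2 h on the y axis and in resting cells on the x axis, 4 arrays each, and a dashed line at equal ratios. Red marks the 956 genes whose ratio differed between the 2 states. Csf2, Tnf and Il2 lie high in activated cells alone, and Ccl3, Ccl4 and Ccl2 are high in both. Aldoa and Rps23, whose differences were not called, lie near the line.

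The comparison with resting cells asked which responses to the antibody differed between activated and resting cells. Activated cells had IgE and antigen and resting cells are listed with neither, so IgE loading and antigen cannot be told apart. The ratio differed in 956 of 17100 genes (5.59%), 615 of them higher in activated cells (3.6%) and 341 lower (1.99%). Other scalings moved that split, which came to 375 higher and 419 lower for the signals processed by Agilent's software and to 696 and 116 for median-centred arrays. The number lower in activated cells was 176 without activated replicate 2, 159 without activated replicate 4 and 205 without resting replicate 1. Of the 66 genes raised at least 2-fold 63 were higher in activated than in resting cells, all but Aldoa, Ftl1 and Ftl2-ps, though the 66 were picked on the same activated arrays. For 14 of the 66 the IgG signal of resting cells was not well above background on every array. The largest differences were those of Csf2 (3.08, adjusted p = 7.12e-14), Il2 (2.43), Tnf (2.38), Ccl4 (2.37), Ptgs2 (2.24) and Il6 (2.24). Hbegf (2.18), Il3 (2.11), Nr4a1 (2.01), Il4 (1.99), Hey1 (1.97) and Cxcl2 (1.92) followed. Within the slide that held activated replicates 1 and 2 and a resting array the difference of Csf2 was 3.01 and that of Tnf 2.43, and within the slide of replicates 3 and 4 they were 3.12 and 2.12. In IgG-treated resting cells Csf2 and Il3 were well above background on 1 array of 4, and Il31, Gem, Areg, Nr4a3 and Ifng on 0, so their differences are not exact. The difference of Il2, whose resting intensities were about as low as those of Csf2 with IgG, is not exact either.

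Lower in activated than in resting cells were the ratios of H1f2 (-0.78), a linker histone, Fcer1a (-0.71), Hs6st1 (-0.67), Enkur (-0.62), Cx3cl1 (-0.62) and Myb (-0.55). Tmem131l (-0.54), Fam102b (-0.53), Rgs12 (-0.52), Vim (-0.49), the intermediate filament vimentin, Thra (-0.49), a thyroid hormone receptor, and Gsdme (-0.48) completed the 12. H1f2, not measured on activated replicate 2, had ratios of -0.40, -0.33 and -0.45 in activated cells, against 0.48, 0.39, 0.44 and 0.25 in resting cells, so its sign differed between the states on every array measured. For Vim the ratios were -0.26, -0.52, -0.45 and -0.32 in activated cells and 0.13, 0.01, 0.26 and 0.02 in resting cells. On median-centred arrays its mean in activated cells lay 0.13 above that scaling's median gene.

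By list, the difference was called higher in 12 of 22 growth factor genes, 9 of 29 chemokines, 8 of 18 NF-kappaB genes, 8 of 19 MAP kinase feedback genes, 9 of 28 AP-1 genes and 17 of 51 further early-response genes, beside 3.6% of all genes. The median differences were 0.24, 0.07, 0.19, 0.18, 0.05 and 0.11 in the same order. For the cytokines the median difference was 0.46 (0.49 within the slide of replicates 1 and 2 and 0.38 within that of 3 and 4).

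**Figure D5:**
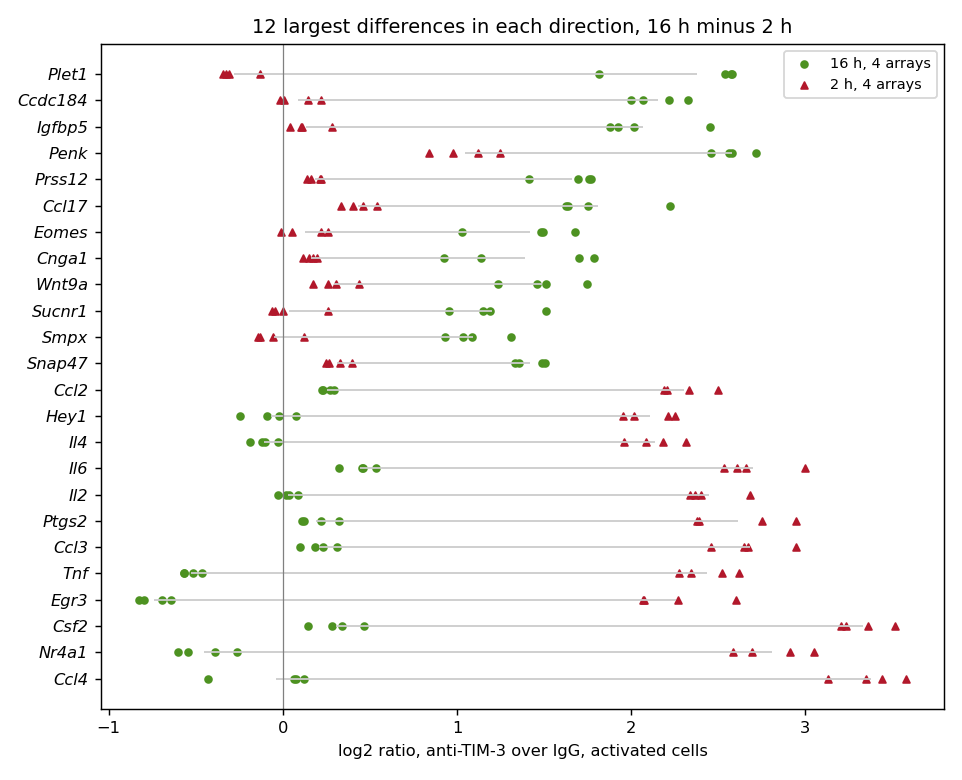
The x axis is the log2 ratio of anti-TIM-3 over IgG in activated cells on 4 arrays at 16 h (green circles) and 4 arrays at 2 h (red triangles), for the 12 named genes with the largest called differences in each direction, 16 h minus 2 h. Penk, Plet1 and Igfbp5 are high at 16 h, and the 12 genes below them, Ccl4 to Ccl2, are higher at 2 h.

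At 16 h the antibody's large early rises had mostly gone. The ratio differed between 16 h and 2 h in 2938 of 17101 genes (17.2%), with 1562 higher (9.13%) and 1376 lower (8.05%) at 16 h. With median-centred arrays it was 4227 higher and 1119 lower, and with centring over the genes tested 1803 and 3791. The comparisons with resting cells and with 16 h both use the activated arrays at 2 h, so they are not independent of the values above. Of the 66 genes raised at least 2-fold at 2 h 62 had a lower ratio at 16 h, where the median over the 66 was 0.15 and 57 stood under 0.5. Ccl4 had ratios of 0.06, 0.12, -0.43 and 0.08 at 16 h, Csf2 of 0.46, 0.34, 0.14 and 0.28 and Il6 of 0.46, 0.46, 0.32 and 0.53, against 2.61, 2.66, 2.53 and 3.00 for Il6 at 2 h. Nr4a1 (-0.55, -0.26, -0.60 and -0.39), Egr3 (-0.69, -0.64, -0.82 and -0.80) and Tnf (-0.52, -0.56, -0.46 and -0.56) had all 4 arrays below 0 at 16 h. The differences were -3.42 for Ccl4 (adjusted p = 4.46e-10), -3.26 for Nr4a1, -3.02 for Csf2, -2.99 for Egr3 and -2.96 for Tnf. Ccl3 (-2.47), Ptgs2 (-2.42), Il2 (-2.42), Il6 (-2.26), Il4 (-2.24), Hey1 (-2.18) and Ccl2 (-2.05) complete the 12 largest.

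A few of the 66 were still raised at 16 h. Edn1 stood at 1.04 ± 0.28 at 16 h, Inhba at 1.01, Serpina3g at 1.07 and Ccl1 at 1.64, and for the last 3 the difference from 2 h was not called (adjusted p = 0.589, 0.603 and 0.0841). Penk alone among the 66 was higher at 16 h, with ratios of 2.56, 2.72, 2.46 and 2.58 there and of 0.84, 1.24, 0.98 and 1.12 at 2 h.

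Other genes had a response at 16 h that was small or absent at 2 h. Plet1, a surface protein of progenitor cells, had ratios of 2.58, 1.82, 2.57 and 2.54 at 16 h and of -0.33, -0.34, -0.13 and -0.31 at 2 h (difference 2.65, adjusted p = 1.44e-10). Ccdc184 (2.06), Igfbp5 (1.93), which binds insulin-like growth factors, Prss12 (1.48), Ccl17 (1.38), a chemokine of Th2 cells, and Eomes (1.29), a T-box factor of cytotoxic lymphocytes, came next. Cnga1 (1.23), Wnt9a (1.19), Sucnr1 (1.16), the succinate receptor, Smpx (1.14) and Snap47 (1.11) were the rest of the 12 largest. The replication and mitosis lists stood higher at 16 h than at 2 h in 44 of 52 and 38 of 50 genes, beside 9.13% of all genes tested. Their medians at 16 h were 0.22 and 0.19. The macrophage and dendritic cell markers were lower at 16 h in 13 of 23 genes (median difference -0.40), beside 8.05% of all genes. The part of such cells in the comparison of times was not tested. These list counts were made with the main scaling only, and the split over all genes moved with the scaling. Activated arrays of both times share 1 slide, on which the difference of Csf2 was -3.23 and that of Penk 1.41.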

How the data were processed

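The arrays were 2-colour mouse expression arrays with 45018 spots, scanned by the submitters. Mean and background intensity per spot and channel, and a log10 ratio of Cy5 over Cy3, came from Agilent Feature Extraction (9.1.3.1 per the file headers, 9 per the submitters' processing notes). The log10 ratios in the authors' table equal those of the scanner files, with a median of 0 on each array. Spot intensities deposited by the authors were background-corrected here with normexp (offset 50) and loess-normalized within each array in limma 3.58.1 (R 4.3.3), with control spots and outlier flags at weight 0, and turned into log2 ratios. Log2 ratios tested here thus come from intensities deposited by the authors. Spots of a probe were averaged. Probes entered the test where 3 or more of a group's 4 arrays had Cy5 or Cy3 well above background, and the brightest such probe stood for its gene, which left 17101 genes. Genes were named through RefSeq accessions and symbols or kept the file's name. A model with a mean per group over all 16 arrays was fitted with lmFit and eBayes, and p-values were adjusted by Benjamini and Hochberg over all genes. The calling step was tested on simulated data.

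The arrays and gene lists were chosen with earlier results of these data known. Genes were named if called with a change of at least 2-fold, if among the 20 largest falls or the 12 largest differences in each direction, if among the 5 called members of a list furthest from 0 or called against the list's majority, or if they belong to the TIM family. Further list members were named after their values were seen, to show genes known from the pathway, uncalled ones included. Some genes that the rule names are not reported here. Alternatives were other background, scaling, filter and probe rules, slide or replicate blocks, the deposited ratios and leaving out single arrays. Centring over the genes tested and the slide as a fixed block were added after seeing the data.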

Additional observations from a re-analysis of the deposited data

Results flagged for a closer look

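Of 297 genes named and measured on all 4 activated arrays at 2 h, 8 had an array whose log2 ratio stood apart from the others by Dixon's criterion at 95%, which chance meets in about 1 in 20 groups. The array was replicate 1 for Csf2rb2 (0.61) and Prkcd (-0.10), replicate 2 for Zfpm1 (-0.27), replicate 3 for Il12a (-0.13), Plet1 (-0.13) and Prss34 (0.14) and replicate 4 for Cma1 (0.42) and Crtam (1.09).

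By state, 956 genes had a ratio in activated cells that differed from the one in resting cells by the test of that difference (limma, adjusted p under 0.05). The largest differences in log2 ratio, activated minus resting, were Csf2 (3.08), Il2 (2.43), Tnf (2.38), Ccl4 (2.37), Ptgs2 (2.24), Il6 (2.24), Hbegf (2.18), Il3 (2.11), Nr4a1 (2.01), Il4 (1.99), Hey1 (1.97) and Cxcl2 (1.92). The lowest were H1f2 (-0.78), Fcer1a (-0.71), Hs6st1 (-0.67), Enkur (-0.62), Cx3cl1 (-0.62), Myb (-0.55), Tmem131l (-0.54), Fam102b (-0.53), Rgs12 (-0.52), Vim (-0.49), Thra (-0.49) and Gsdme (-0.48).

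Between 16 h and 2 h in activated cells the response differed in 2938 genes. The largest differences in log2 ratio, 16 h minus 2 h, were Plet1 (2.65), Ccdc184 (2.06), Igfbp5 (1.93), Penk (1.53), Prss12 (1.48), Ccl17 (1.38), Eomes (1.29), Cnga1 (1.23), Wnt9a (1.19), Sucnr1 (1.16), Smpx (1.14) and Snap47 (1.11). The lowest were Ccl4 (-3.42), Nr4a1 (-3.26), Csf2 (-3.02), Egr3 (-2.99), Tnf (-2.96), Ccl3 (-2.47), Ptgs2 (-2.42), Il2 (-2.42), Il6 (-2.26), Il4 (-2.24), Hey1 (-2.18) and Ccl2 (-2.05).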

How the results depend on the processing

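Of 5925 alternative values for the genes named, 5643 counted as unchanged. They kept their direction and side of the threshold, moved by less than the spread, or changed sign without a call in either setting. Of the rest 148 lost their call and 57 gained one. A further 42 changed sign with a call in the main setting or the alternative, and 35 within-slide values moved by more than the spread. Sign changes without any call, such as Fcer1a with Agilent's processed signals (0.08 to -0.24), are not listed below. Agilent's processed signals and the deposited ratios are nearly the same values, and so are the 2 median centrings for single genes. These counts thus hold such values 2 times. Signs changed on median-centred arrays, in values relative to that scaling's median gene, for Casp2 (0.070), Ccl6 (0.12), Ddit4 (0.091), Gata2 (0.49), Grb2 (0.042), Havcr1 (-0.14), Ier2 (0.28), Il10 (-0.17), Il12a (-0.25), Inpp5d (0.29), Irf1 (0.19), Jund (0.51), Kit (0.24), Lyl1 (0.26), Mcl1 (0.33), Ncl (0.14), Ptpn1 (0.37), Rela (0.066), Rgs12 (0.12) and Vim (0.13). With centring over the genes tested the same 20 genes changed sign, with Ddit4 (0.092), Grb2 (0.043) and Rela (0.067) where the printed value differs. With the mean of all kept probes Csf2rb (-0.036) and Tph1 (-0.0083) changed sign. The calls in activated cells at 2 h came to 5704 higher and 5644 lower with centring over the genes tested and to 10293 and 797 with median centring. For activated minus resting cells they were 375 and 419 with Agilent's processed signals, 376 and 419 with the deposited ratios, 696 and 116 with median centring, and 406 and 162 with only the groups compared in the fit. For 16 h minus 2 h they were 4227 and 1119 with median centring, 1803 and 3791 with centring over the genes tested, and 1026 and 941 with the slide as a fixed block. Median centring applies no loess. The cause of the other shifts was not tested. Leaving out single arrays gave 2047 to 2654 higher and 1815 to 2400 lower calls at 2 h, 417 to 731 and 159 to 366 for activated minus resting cells, and 1169 to 1406 and 1033 to 1300 for 16 h minus 2 h. The number lower at 2 h was 1815 without activated replicate 4. The number lower in activated than resting cells was 176 without activated replicate 2, 159 without activated replicate 4 and 205 without resting replicate 1. With the replicate number as a block the calls were 3043 and 3059 at 2 h, 673 and 402 for activated minus resting cells, and 1781 and 1519 for 16 h minus 2 h. Same-numbered activated and resting arrays deviated from their group means with correlations of -0.21, 0.32, -0.12 and 0.08, and activated arrays at 16 h and 2 h with 0.26, 0.38, -0.38 and 0.09. Activated and resting arrays of unlike number ranged between -0.48 and 0.56. Deviations from a mean of 4 arrays are tied to each other, so this check cannot decide whether the numbers pair the samples.

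Signal over background limits the comparison with resting cells, since Il31, Gem, Areg, Nr4a3 and Ifng were not well above background there with IgG on any array. No dyes were exchanged, so small ratios and gene-specific dye bias cannot be told apart.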
